A study of Sus scrofa with 23 samples.

Results

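The 10 later-numbered newborn pigs compared here comprised 5 CF pigs (CF7 to CF11) and 5 non-CF pigs, of which HET19, HET20 and HET21 were heterozygous and WT22 and WT23 were wild-type. They were 10 of the 23 pigs whose kidney cortex RNA was sequenced, each pig giving 1 library. CF pigs carried the genotype CFTR-/-, HET pigs CFTR+/- and WT pigs CFTR+/+. All came from matings of heterozygous parents, and the labels name no treatment. Sex and litter are not in the labels. The other 13 pigs (CF1 to CF6, WT12, HET13 to HET15 and WT16 to WT18) are called earlier-numbered pigs. The sets were chosen by measured values, since a scaling of expression over all 23 libraries had a gap on its second axis. On that axis the later-numbered libraries lay from 0.33 to 0.73 and the earlier-numbered from -0.80 to 0.01, and the libraries nearest to the gap were CF11 at 0.33 and HET14 at 0.01. The number of genes that differ between CF and non-CF within the later set was known when the set was chosen, so the tests below describe these 10 libraries.

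CFTR is an anion channel of epithelial cells whose loss causes cystic fibrosis. The kidney cortex holds glomeruli, where podocytes form the filter, and the tubule segments that recover solutes from the filtrate. The proximal tubule takes back most glucose, amino acids and phosphate, the thick ascending limb and distal convoluted tubule recover salt, calcium and magnesium, and the collecting duct sets the final water content. The proximal tubule draws its energy mainly from oxidation of fatty acids and other fuels in mitochondria, and nephrons of newborn pigs are still maturing.

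The later-numbered libraries held 32901194 to 52952229 estimated counts, and 3 counts, the limit that a count of 0 allows, corresponded to 0.0567 to 0.0912 CPM (counts scaled by effective library size), which covers counting error only. Levels below are CPM, group means are given ± SD over n = 5 libraries, and fold changes are log2 of CF over non-CF with their SE. Between CF and non-CF, total counts (exact permutation p = 0.603, two-sided) and the number of genes with a count (p = 0.516, exact permutation test) overlapped, and the share of counts from non-coding genes was 11.2% ± 0.479 against 10.6% ± 0.422 (SD, n = 5 each, exact permutation p = 0.0714). The kidney markers LRP2, CUBN, SLC34A1 and NPHS1 were counted in all libraries, and the list of proximal tubule markers summed to 13987 to 18113 CPM in CF and 13278 to 16549.5 CPM in non-CF. EIF1AY, a Y-linked gene, was present in CF7, CF9, CF11 and all 3 HET libraries and at 0 to 5 counts in CF8, CF10, WT22 and WT23. Its levels were 21.9, 0.0947, 25.96, 0.0953 and 20.6 CPM in CF7 to CF11, 21.7, 19.9 and 19.8 CPM in HET19 to HET21, and 0 and 0.0835 CPM in WT22 and WT23. Among the later controls, the HET label and the presence of EIF1AY therefore cannot be told apart. In a scaling of the 10 libraries alone, axis 1 (29.2% of the variance) placed 5 of the 6 libraries with EIF1AY above 0.6 and CF11 at -0.03, and axis 2 (16.3%) placed all 5 CF libraries below 0 and all 5 non-CF libraries above it.

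**Figure D1:**
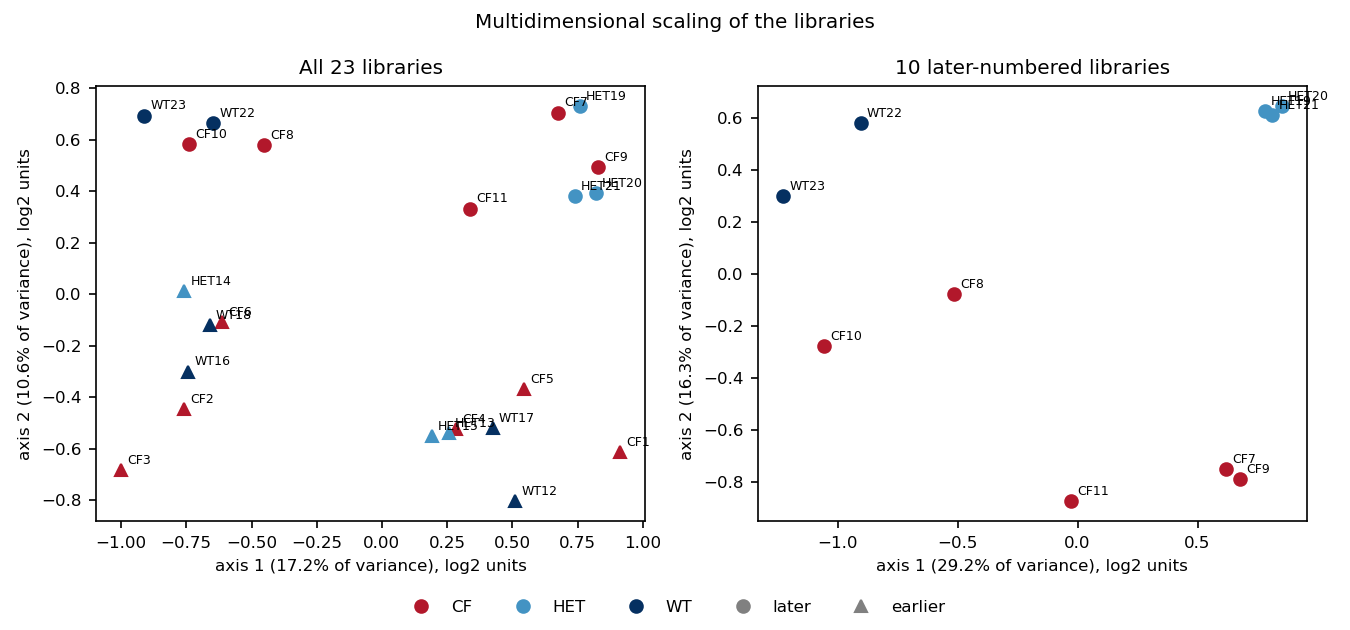
Multidimensional scaling of log2 CPM of the 500 genes that differed most between pairs of libraries, for all 23 libraries (left) and the 10 later-numbered ones (right); points are libraries, coloured by genotype, circles later and triangles earlier. On the left the later libraries lie above 0.3 on axis 2 and the earlier ones below 0.1, and on the right the CF libraries lie below the non-CF ones on axis 2.

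CFTR RNA was examined first (gene at chr18:28627717-28818209 of Sscrofa11.1, the build of all positions here). It was 17.1, 17.1, 22.2, 23.5 and 19.9 CPM in CF7 to CF11, 13.3, 10.9 and 11.8 CPM in HET19 to HET21, and 2.27 and 1.25 CPM in WT22 and WT23. Libraries labelled CF thus held the highest levels, those labelled HET lay between, and those labelled WT held the lowest, with no overlap between any of the labels. The log2 difference was 2.78 for HET minus WT (SE 0.25, edgeR adjusted p = 0.000355), 3.51 for CF minus WT (SE 0.25, edgeR adjusted p = 2.88e-05) and 0.74 for CF minus HET (SE 0.17, edgeR adjusted p = 0.0422). The last of these missed the limit without CF9, CF10, CF11, HET19, HET20 or HET21, with adjusted p between 0.059 and 0.207. RNA level thus went against the loss of CFTR that the label CF denotes, although counts summed over the gene do not show whether a transcript is intact. CF below means the libraries labelled CF. Against the 5 non-CF libraries together, whose spread includes the HET and WT difference, CFTR gave 1.34 (SE 0.48, edgeR adjusted p = 0.161).

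Within the later-numbered pigs, 473 of 20882 genes (2.27%) passed an adjusted p of 0.05 in edgeR's quasi-likelihood test, 254 higher (1.22%) and 219 lower (1.05%) in CF. At an unadjusted p under 0.05 there were 3635 genes (17.4%). The 2 groups of 5 libraries did not overlap for 942 genes (4.51%), 491 higher (2.35%) and 451 lower (2.16%) in CF, among them 400 of the 473. Over all genes tested 11048 had higher and 9834 lower means in CF. Changes were moderate, with a median absolute log2 fold change of 0.66 and 114 genes beyond 1 in either direction. The called genes that were higher included transporters of lipids and inhibitors of TGF-beta signalling, and those that were lower included fatty acid binding proteins, calcium-binding proteins of the distal tubule, chaperones and glycolytic enzymes. The count depended on single libraries: it was 175 without HET20, 228 without CF7, 252 without CF11, 270 without WT22, 293 without HET19 and between 369 and 607 without any other. All 473 genes kept their direction in each of these fits, which reuse the libraries that chose them. With the 3 HET libraries alone as the control 428 genes were called, 248 of them among the 473, and with the 2 WT libraries alone 37, of which 29 were among the 473.

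**Figure D2:**
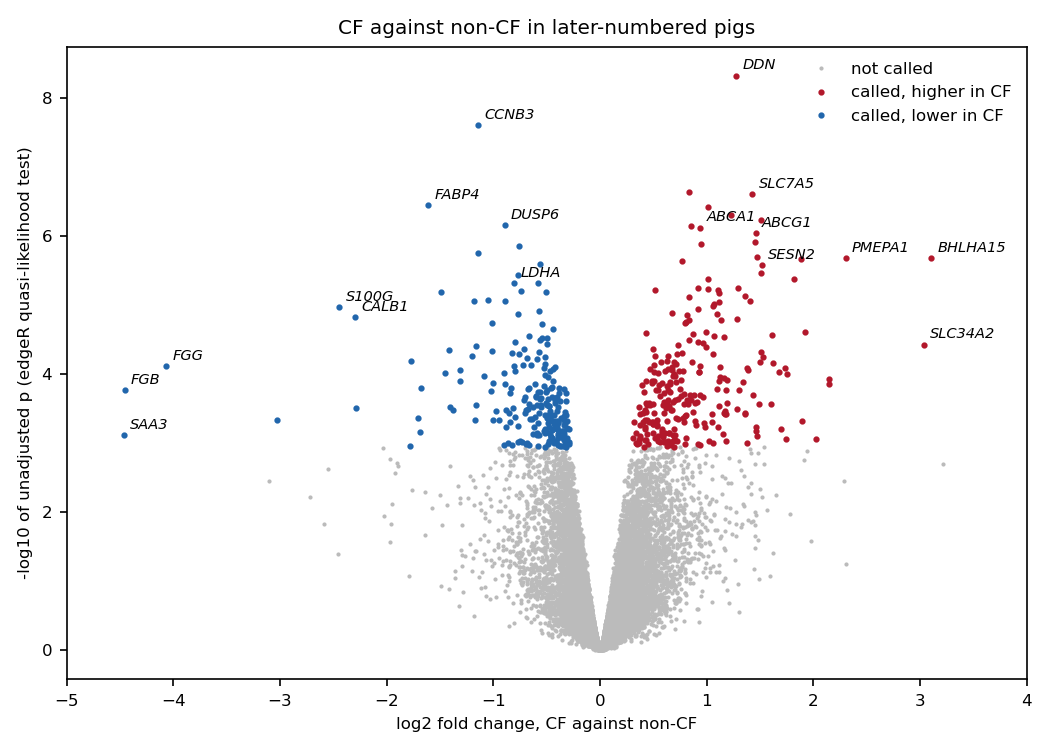
Log2 fold change of CF against non-CF (x) and -log10 of the unadjusted p of edgeR's quasi-likelihood test (y) for 20882 genes in the 10 later-numbered libraries; each point is a gene, red higher and blue lower in CF at an adjusted p under 0.05. DDN and CCNB3 have the smallest p on either side, and FGB, SAA3 and FGG lie farthest to the left.

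The genes with the smallest p had narrow groups that stood far apart. DDN (chr5:15025508-15032335), which encodes dendrin, a protein of podocytes and neurons, was 78.1, 77.2, 71.9, 90.4 and 74.6 CPM in CF7 to CF11, 33.9, 26.1 and 34.4 CPM in HET19 to HET21, and 31.7 and 36.1 CPM in WT22 and WT23. All CF libraries lay above all of the non-CF libraries (log2 fold change 1.27, SE 0.097, edgeR adjusted p = 0.000101). Of 15 other podocyte markers 0 were called by edgeR, 1 by DESeq2 and 0 by limma-voom, and 1 had an unadjusted p under 0.05. This was SYNPO, an actin-binding protein, with 0.89 (SE 0.22, edgeR adjusted p = 0.0509), which passed without CF8, CF10 or HET21 (adjusted p = 0.0355, 0.0423 and 0.0208). CCNB3 (chrX:43922729-43988939), a cyclin of dividing and meiotic cells, was 10.8, 11.2, 8.91, 10.5 and 9.13 CPM in CF7 to CF11, 20.5, 23.5 and 25.1 CPM in HET19 to HET21, and 21.6 and 20.97 CPM in WT22 and WT23. Every CF library was lower than every non-CF library (log2 fold change -1.14, SE 0.099, edgeR adjusted p = 0.000262). MMP11, a stromal metalloproteinase, was 144 ± 12.9 CPM in CF against 80.9 ± 7.38 CPM in non-CF (log2 fold change 0.83, SE 0.087, edgeR adjusted p = 0.00132). SAMD11 rose by 1.51 (SE 0.17, edgeR adjusted p = 0.00145) on the log2 scale, SLC4A11, a membrane transporter of the bicarbonate transporter family, by 0.86 (SE 0.099, edgeR adjusted p = 0.00145), and LRRC66 by 0.94 (SE 0.11, edgeR adjusted p = 0.00195). TMEM207 changed by -0.76 (SE 0.093, edgeR adjusted p = 0.00195) and HABP4, a hyaluronan-binding protein, by -0.58 (SE 0.079, edgeR adjusted p = 0.0035). None of these calls was lost when any 1 library was left out.

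The largest increases among called genes with a mean of at least 1 CPM, LOC symbols left out, were those of BHLHA15, SLC34A2, PMEPA1, C1QL4 and PLK5. BHLHA15, a transcription factor of secretory cells, was 10.7, 3.16, 8.65, 9.46 and 7.96 CPM in CF7 to CF11, 0.708, 0.367 and 0.623 CPM in HET19 to HET21, and 1.79 and 1.19 CPM in WT22 and WT23. The CF range of 3.16 to 10.7 CPM lay above that of non-CF (log2 fold change 3.11, SE 0.39, edgeR adjusted p = 0.00229). SLC34A2, a sodium phosphate cotransporter better known from lung and intestine, ranged over 1.48 to 12.04 CPM in CF and 0.464 to 0.928 CPM in non-CF (log2 fold change 3.04, SE 0.50, edgeR adjusted p = 0.00986). C1QL4 overlapped between the groups, with 1.74 to 9.08 CPM in CF and 0.714 to 1.999 CPM in non-CF (log2 fold change 2.14, SE 0.41, edgeR adjusted p = 0.0176, 0.0512 without HET20). PLK5 also overlapped, because CF7 held 0.442 CPM against 0.733 CPM in HET19 (log2 fold change 2.02, SE 0.48, edgeR adjusted p = 0.0444), and its call was lost in 8 of 10 fits that left out 1 library (adjusted p up to 0.113).

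Among the called genes that were higher, levels within the CF group were often ordered by EIF1AY. For 129 of the 254 (50.8%), the 3 CF libraries with EIF1AY (CF7, CF9 and CF11) all lay above the 2 without it (CF8 and CF10), and for 4 (1.57%) all lay below. Over all genes tested the same shares were 16.7% and 13%, and among the 219 genes that were lower they were 11% and 10%. The part of EIF1AY, and of the sex it may mark, in these results was not tested beyond the values here. In the 6 libraries with EIF1AY alone (3 CF and 3 HET) 411 genes were called, 239 of them among the 473, and in the 4 without it (2 CF and 2 WT) 50 genes were called, of which 28 were among the 473. With log2 CPM of EIF1AY as a covariate all 473 genes were called, among 756 in all.

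Promoter windows of 3 called genes are shown because each holds the known element of a pathway described below. They are the 250 bases before the start of the gene's most counted transcript model in Sscrofa11.1, 5′ to 3′ on the strand of the gene, with the element in capitals. SMAD7 (chr1:98543923-98544172, minus strand) holds GTCTAGAC, the palindrome bound by SMAD proteins, 167 bases before the start. HSPD1 (chr15:101373499-101373748, minus strand) holds a heat shock element, GAANNTTCNNGAA, 230 bases before it. SESN2 (chr6:85323983-85324232, plus strand) holds TGATGCAA, the element bound by ATF4 with C/EBP proteins, 59 bases before it. Other SESN2 models begin farther upstream, so this window lies inside the gene as annotated (chr6:85321982-85348044), and another SMAD7 model begins 2 bases inside the window printed. These genes were picked after their values and letters had been seen.
SMAD7: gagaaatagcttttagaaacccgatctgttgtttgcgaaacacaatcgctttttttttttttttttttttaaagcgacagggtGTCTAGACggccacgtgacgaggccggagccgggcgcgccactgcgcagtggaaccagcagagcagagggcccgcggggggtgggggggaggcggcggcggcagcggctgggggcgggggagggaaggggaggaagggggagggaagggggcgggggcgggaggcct
HSPD1: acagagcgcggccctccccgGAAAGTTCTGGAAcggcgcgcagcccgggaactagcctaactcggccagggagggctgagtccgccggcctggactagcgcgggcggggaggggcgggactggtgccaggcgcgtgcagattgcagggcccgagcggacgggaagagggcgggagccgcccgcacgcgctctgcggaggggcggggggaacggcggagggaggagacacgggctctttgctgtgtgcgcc
SESN2: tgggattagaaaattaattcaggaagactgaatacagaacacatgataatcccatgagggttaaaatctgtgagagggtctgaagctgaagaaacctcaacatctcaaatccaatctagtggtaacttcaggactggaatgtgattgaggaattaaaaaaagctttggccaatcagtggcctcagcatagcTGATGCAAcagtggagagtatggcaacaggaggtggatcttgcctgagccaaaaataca
Over 20877 promoters chosen the same way and of the same length, searched on both strands, GTCTAGAC occurred in 35 (0.168%), in 1 of the 254 genes that were higher and in 2 of the 219 that were lower. GAANNTTCNNGAA occurred in 62 (0.297%), in 0 and 3 of these genes, and TGATGCAA in 116 (0.556%), in 2 and 2 of them. A match describes the letters in this window only.

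Called genes of cholesterol efflux were higher in CF, and called fatty acid binding proteins were lower. ABCA1 (chr1:246144277-246278492), which passes cholesterol and phospholipid to apolipoproteins, was 199.7, 172, 209, 185 and 209 CPM in CF7 to CF11, 98.9, 86.7 and 91.6 CPM in HET19 to HET21, and 98.9 and 131 CPM in WT22 and WT23. All CF libraries exceeded all non-CF libraries (log2 fold change 0.94, SE 0.11, edgeR adjusted p = 0.00145), and WT23 was the highest control. ABCG1, which exports sterols to lipoprotein particles, was 5.95 ± 0.829 CPM in CF against 2.16 ± 0.518 CPM in non-CF (log2 fold change 1.46, SE 0.17, edgeR adjusted p = 0.0016). Both are classical targets of the liver X receptors, nuclear receptors that sense oxysterols. In a list of such targets, chosen after the values had been seen, 5 of 17 members past the filter were called higher and 0 lower (background 2.27% called), with a median log2 fold change of 0.20 (0.15 without WT22 to 0.32 without HET21, 0.42 in the 6 libraries with EIF1AY, 0.11 in the 4 without EIF1AY, 0.31 against HET alone) beside 0.01 over all genes. The other called members were MYLIP, which marks the LDL receptor for degradation, with 0.51 (SE 0.093, edgeR adjusted p = 0.0145), APOE with 0.70 (SE 0.16, edgeR adjusted p = 0.036, lost in 7 of 10 fits that left out 1 library, adjusted p up to 0.0969) and SREBF1 with 0.92 (SE 0.22, edgeR adjusted p = 0.0475, lost in 8 of 10 fits that left out 1 library, adjusted p up to 0.115). The receptors NR1H3 and NR1H2 gave 0.13 and 0.07 and were not called. Among 20 cholesterol synthesis genes 19 had lower means in CF, where 9834 of all 20882 genes had, with a median of -0.39 (-0.17 in the 6 libraries with EIF1AY, -0.69 in the 4 without EIF1AY), but only HSD17B7 was called (5%, beside 2.27% of all genes), with -0.88 (SE 0.19, edgeR adjusted p = 0.0262), and it was lost in 6 of 10 fits that left out 1 library (adjusted p up to 0.0747). In the earlier-numbered pigs 19 of the 20 synthesis genes also had lower and 1 higher means in CF, with a median of -0.17.

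FABP4, a fatty acid carrier of adipocytes, macrophages and capillary endothelium, was 2.45, 2.67, 3.21, 2.72 and 3.52 CPM in CF7 to CF11, 11.6, 7.90 and 6.66 CPM in HET19 to HET21, and 10.9 and 7.46 CPM in WT22 and WT23. The highest CF library lay below the lowest control (log2 fold change -1.61, SE 0.17, edgeR adjusted p = 0.00132). FABP5 was 12.4 ± 1.50 CPM in CF against 27.2 ± 5.74 CPM in non-CF (log2 fold change -1.14, SE 0.14, edgeR adjusted p = 0.00229). Of 7 adipocyte markers past the filter only FABP4 was called by edgeR (14.3%, beside 2.27% of all genes), while DESeq2 called 1 higher and 1 lower. Means were higher in CF for 5 of the 7, by up to 0.70, and 2 of the 7 had an unadjusted p under 0.05 in edgeR. Their sum was 48.4 to 65.8 CPM in CF and 48.3 to 58.00 CPM in non-CF, and PLIN4, LEP and LPL gave -0.01, 0.02 and 0.06. ACSL4, which activates arachidonic acid, changed by -0.56 (SE 0.072, edgeR adjusted p = 0.00239), with 57.5 to 65.2 CPM in CF and 81.8 to 98.7 CPM in non-CF. The retinol-handling dehydrogenases RDH16 and SDR9C7, which belong to the short-chain dehydrogenase family, rose by 1.23 (SE 0.14, edgeR adjusted p = 0.00145) and 1.01 (SE 0.11, edgeR adjusted p = 0.00132), and neither overlapped between the groups. Of 25 fatty acid oxidation genes 3 were called, all lower (12%, beside 2.27% of all genes), among them CPT1B, the muscle-type carnitine palmitoyltransferase of the mitochondrial outer membrane, with -0.68 (SE 0.12, edgeR adjusted p = 0.0124). PDK4, which restrains pyruvate oxidation, gave -0.67 (SE 0.14, edgeR adjusted p = 0.0236), with an adjusted p of 0.0543 without CF7 and 0.0639 without HET20, and SLC25A20, the carnitine carrier, gave -0.59 (SE 0.13, edgeR adjusted p = 0.0391) and was lost in 9 of 10 fits that left out 1 library (adjusted p up to 0.0891).

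Amino acid transporters, the subject of the study's kidney work, gave few calls. Of 47 past the filter, 1 was called higher and 1 lower (4.26%, beside 2.27% of all genes), and the median log2 fold change was 0.05 (-0.01 without HET19 to 0.11 without HET21, 0.14 in the 6 libraries with EIF1AY, -0.05 in the 4 without EIF1AY, 0.08 against HET alone, 0.03 against WT alone). SLC7A5 (chr6:1545940-1574298), the exchanger of large neutral amino acids also called LAT1, was 140.2, 95.1, 126, 80.2 and 124 CPM in CF7 to CF11, 33.7, 43.3 and 47.8 CPM in HET19 to HET21, and 47.5 and 37.9 CPM in WT22 and WT23. RefSeq annotates this record (gene ID 102162270) as a long non-coding RNA under the transporter's name, so its counts do not show that the coding transcript changed. Its lowest CF library, CF10, at 80.2 CPM, lay above the highest control, HET21 (log2 fold change 1.43, SE 0.15, edgeR adjusted p = 0.00132). SLC3A2, its heavy chain partner, gave -0.19 and was not called (adjusted p = 0.526). SLC1A5, a sodium-dependent carrier of glutamine and other neutral amino acids, was 125 ± 17.02 CPM in CF against 196 ± 28.3 CPM in non-CF, without overlap (log2 fold change -0.64, SE 0.11, edgeR adjusted p = 0.0137). The glutamate transporter SLC1A1 was 84.1 ± 21.9 CPM in CF against 87.3 ± 19.7 CPM in non-CF (log2 fold change -0.05, SE 0.18, edgeR adjusted p = 0.924). SLC38A4, a neutral amino acid transporter, was 2.70 ± 0.471 CPM in CF against 3.30 ± 0.177 CPM in non-CF (log2 fold change -0.28, SE 0.14, edgeR adjusted p = 0.326).

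The gene of SLC7A5 is also a target of the amino acid response, in which ATF4 induces genes when amino acids are scarce. Of 22 genes of this response, 2 were called, both higher (9.09%, beside 2.27% of all genes), namely SESN2 and SLC7A5, the latter through the record annotated as non-coding. Means were higher for 13 members and lower for 9. The median was 0.26 (0.20 without CF11 to 0.35 without CF8, 0.51 in the 6 libraries with EIF1AY, 0.19 in the 4 without EIF1AY, 0.46 against HET alone, 0.20 against WT alone), and it was -0.03 in the earlier-numbered pigs. SESN2, a leucine sensor that restrains the growth kinase complex mTORC1, was 131, 58.2, 108, 61.4 and 74.3 CPM in CF7 to CF11, 29.5, 30.6 and 32.1 CPM in HET19 to HET21, and 27.4 and 31.4 CPM in WT22 and WT23. The controls were tightly grouped and all CF libraries lay above them, CF7 and CF9 the most (log2 fold change 1.52, SE 0.20, edgeR adjusted p = 0.00239). Other members were not called, with ATF4 at 0.13, ASNS at 0.46, DDIT3 at -0.0023 and CHAC1 at 1.50 (adjusted p = 0.0959). Of 20 aminoacyl-tRNA synthetases 0 were called by edgeR and by limma-voom and 1 by DESeq2, and 4 had an unadjusted p under 0.05. FARSB, a phenylalanyl-tRNA synthetase subunit with the smallest p among them, gave -0.36 (SE 0.11, edgeR adjusted p = 0.105).

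Several feedback inhibitors of TGF-beta signalling were higher in CF. In this pathway a ligand activates receptor kinases that phosphorylate SMAD proteins, and the SMADs induce inhibitors of their own pathway. Of 27 feedback and target genes, 5 were called higher and 1 lower (22.2%, beside 2.27% of all genes), 21 had a higher mean and the median was 0.35 (0.22 without CF7 to 0.40 without CF8, 0.11 in the 4 without EIF1AY). PMEPA1 (chr17:57999287-58054329), which sequesters receptor-activated SMADs, was 242, 85.96, 239, 86.6 and 199.7 CPM in CF7 to CF11, 25.1, 34.4 and 36.1 CPM in HET19 to HET21, and 42.6 and 34.6 CPM in WT22 and WT23. Levels in CF7, CF9 and CF11 were the highest and those in CF8 and CF10 lower, all above the controls (log2 fold change 2.30, SE 0.29, edgeR adjusted p = 0.00229). SMAD7, which blocks the receptors and whose promoter is printed above, was 94.3, 48.3, 77.4, 53.1 and 70.7 CPM in CF7 to CF11, 30.4, 34.8 and 29.7 CPM in HET19 to HET21, and 31.04 and 33.6 CPM in WT22 and WT23. The CF libraries again lay above the controls, with CF8 and CF10 the lowest of them (log2 fold change 1.11, SE 0.15, edgeR adjusted p = 0.00365). SKIL, a SMAD corepressor, was 118 ± 15.4 CPM in CF against 73.6 ± 7.86 CPM in non-CF (log2 fold change 0.68, SE 0.10, edgeR adjusted p = 0.00539). Also called were KLF10 with 0.66 (SE 0.13, edgeR adjusted p = 0.0176, 0.0572 without HET20) and BHLHE40 with 0.66 (SE 0.13, edgeR adjusted p = 0.0196), whose adjusted p was 0.054 without CF7 and 0.0628 without HET20. ID3, a target of BMP signalling, was lower, with -0.61 (SE 0.13, edgeR adjusted p = 0.0296, lost in 5 of 10 fits that left out 1 library, adjusted p up to 0.085).

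Among 24 ligands, antagonists and SMADs of the TGF-beta and BMP branches, a list added after values had been seen, 5 were called higher and 1 lower (25%, beside 2.27% of all genes). LDLRAD4, a membrane inhibitor of SMAD phosphorylation related to PMEPA1, was 124 ± 30.1 CPM in CF against 65.6 ± 6.64 CPM in non-CF (log2 fold change 0.92, SE 0.15, edgeR adjusted p = 0.00935). FST, follistatin, which binds activins, was 5.91 ± 2.38 CPM in CF against 2.08 ± 0.4101 CPM in non-CF (log2 fold change 1.50, SE 0.26, edgeR adjusted p = 0.0132). FSTL3, another activin binder, gave 0.90 (SE 0.18, edgeR adjusted p = 0.0235, lost in 5 of 10 fits that left out 1 library, adjusted p up to 0.058), SMAD3 0.69 (SE 0.13, edgeR adjusted p = 0.0146) and the BMP antagonist NBL1 0.64 (SE 0.15, edgeR adjusted p = 0.0459, lost in 9 of 10 fits that left out 1 library, adjusted p up to 0.111). The ligand BMP5 was lower, with 2.56 to 3.41 CPM in CF and 4.88 to 5.56 CPM in non-CF (log2 fold change -0.77, SE 0.12, edgeR adjusted p = 0.00539). TGFB1, TGFB2 and TGFB3 gave 0.41, 0.03 and 0.66, and none was called. GADD45B, a stress-inducible gene also induced by TGF-beta, was 91.5, 35.1, 70.04, 40.3 and 43.3 CPM in CF7 to CF11, 20.6, 13.8 and 12.8 CPM in HET19 to HET21, and 17.9 and 14.3 CPM in WT22 and WT23. It did not overlap between the groups (log2 fold change 1.82, SE 0.25, edgeR adjusted p = 0.0033). GADD45B was the only called member of 26 immediate early genes (3.85%, beside 2.27% of all genes). Of these 13 had higher and 13 lower means, from -2.46 to 1.82, with a median of 0.02, and DESeq2 called 3 higher and 2 lower. Of 31 collagen and basement membrane genes 29 had higher means in CF, where 11048 of all 20882 genes had, with a median of 0.17 (0.08 without CF7 to 0.26 without HET21, 0.10 in the 4 without EIF1AY, 0.11 against HET alone, 0.26 against WT alone), and 2 were called (6.45%, beside 2.27% of all genes). TIMP3, an inhibitor of matrix metalloproteinases, gave 0.64 (SE 0.12, edgeR adjusted p = 0.019), with an adjusted p of 0.052 without CF11 and 0.0587 without HET20. In the 20 stroma, smooth muscle and renin cell markers 0 were called by edgeR, DESeq2 or limma-voom and 3 had an unadjusted p under 0.05, and their sum was 4499.7 to 6822 CPM in CF and 4231 to 5803 CPM in non-CF.

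**Figure D3:**
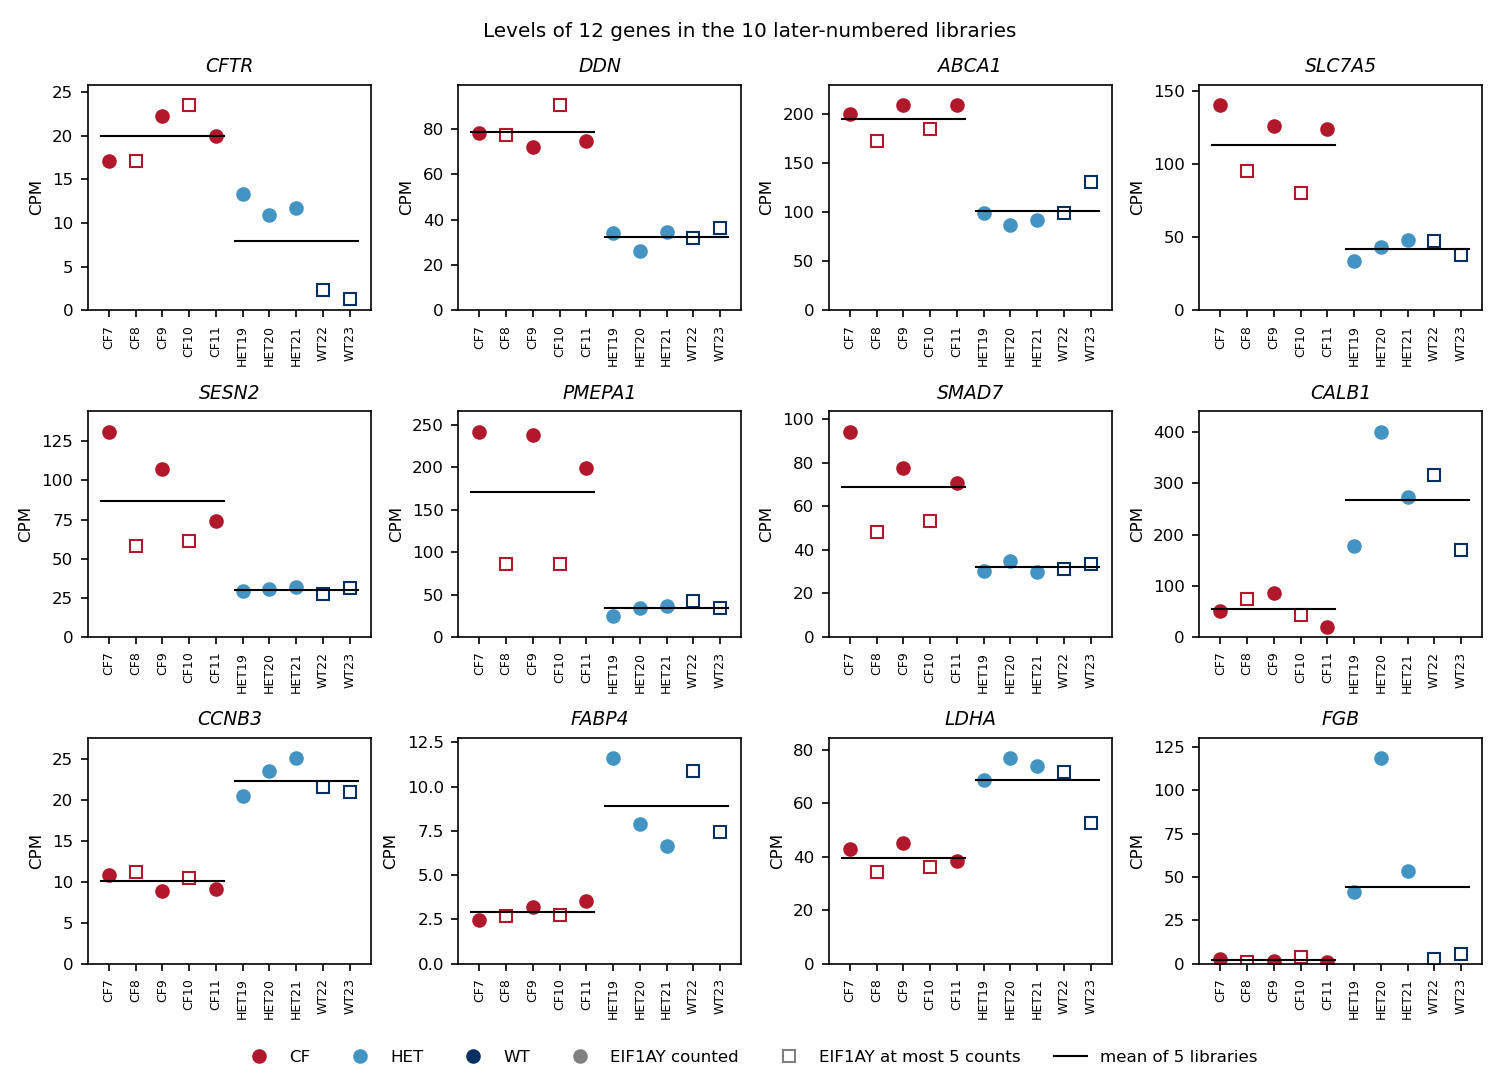
CPM of 12 genes in each of the 10 later-numbered libraries; red points are CF, light blue HET and dark blue WT, filled circles mark libraries with EIF1AY and open squares those with at most 5 counts of it, and horizontal lines are means of 5 libraries. DDN, ABCA1, SLC7A5, SESN2, PMEPA1 and SMAD7 are higher in each CF library than in each control, CALB1, CCNB3, FABP4 and LDHA are lower, and FGB is high in the 3 HET libraries alone.

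Several calcium-handling genes of the distal tubule were lower in CF. Of 20 markers of the distal convoluted and connecting tubule, 5 were called lower and 1 higher (30%, beside 2.27% of all genes), with a median of -0.18 (-0.24 without CF11 to -0.11 without CF10). CALB1 (chr4:46701276-46723548), calbindin-D28k, which buffers calcium as it crosses these cells, was 50.2, 74.7, 85.00, 43.4 and 18.97 CPM in CF7 to CF11, 178, 401 and 272 CPM in HET19 to HET21, and 317 and 169.7 CPM in WT22 and WT23. The groups did not overlap, and CF11 was the lowest library (log2 fold change -2.29, SE 0.35, edgeR adjusted p = 0.00575). S100G, calbindin-D9k, was 0.933, 1.52, 0.833, 0.691 and 0.852 CPM in CF7 to CF11, 1.78, 8.17 and 5.12 CPM in HET19 to HET21, and 7.40 and 4.05 CPM in WT22 and WT23. Here too all CF libraries were below all controls, with levels near 1 CPM (log2 fold change -2.44, SE 0.36, edgeR adjusted p = 0.00467). SLC8A1, the sodium calcium exchanger that extrudes calcium, was 275 ± 63.4 CPM in CF against 494 ± 85.6 CPM in non-CF (log2 fold change -0.84, SE 0.17, edgeR adjusted p = 0.0201), with an adjusted p of 0.0536 without CF11 and 0.0601 without HET20. TRPV5, the apical calcium channel of this segment, averaged 20.8 against 44.6 CPM and did not pass, with -1.10 (SE 0.30, edgeR adjusted p = 0.0776). SLC12A3, the thiazide-sensitive sodium chloride cotransporter, was lower, with -0.71 (SE 0.14, edgeR adjusted p = 0.0215, 0.059 without CF7), as was the magnesium channel TRPM6, with -0.47 (SE 0.11, edgeR adjusted p = 0.0403, lost in 7 of 10 fits that left out 1 library, adjusted p up to 0.112). KLHL3, which targets WNK kinases for degradation, was higher, with 0.63 (SE 0.13, edgeR adjusted p = 0.0236, lost in 4 of 10 fits that left out 1 library, adjusted p up to 0.067). PVALB, KCNJ10 and FXYD2 gave -0.22, 0.01 and 0.09 and were not called. The summed markers were 2684 to 3271 CPM in CF and 3216 to 3929 CPM in non-CF, and in bulk tissue fewer cells of a segment and less RNA per cell cannot be told apart.

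CYP27B1, the proximal tubule enzyme that makes active vitamin D, moved the other way. It was 277, 108, 174, 79.7 and 176 CPM in CF7 to CF11, 43.7, 61.9 and 82.9 CPM in HET19 to HET21, and 79.7 and 48.3 CPM in WT22 and WT23. CF10 lay within the control range and CF7 was the highest (log2 fold change 1.36, SE 0.29, edgeR adjusted p = 0.0274), and the adjusted p was 0.0599 without CF7, 0.0576 without CF11, 0.0652 without HET19 and 0.0727 without HET20. Of 25 proximal tubule markers 3 were called, all higher (12%, beside 2.27% of all genes), with a median of 0.14 (0.07 without CF9 to 0.23 without CF10, 0.09 against HET alone). AQP1, the water channel of the proximal tubule and descending limb, was 310.2 ± 56.8 CPM in CF against 163 ± 39.6 CPM in non-CF, without overlap (log2 fold change 0.92, SE 0.17, edgeR adjusted p = 0.0145). SLC9A3, the sodium proton exchanger of the brush border, gave 0.46 (SE 0.10, edgeR adjusted p = 0.0314) and was lost in 5 of 10 fits that left out 1 library (adjusted p up to 0.0886). The uptake receptors LRP2 and CUBN gave 0.05 and 0.24, the glucose transporter SLC5A2 0.17 and the factor HNF4A -0.04, none of them called.

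In the collecting duct, 2 water channels were lower. AQP2, the vasopressin-regulated channel, was 29.2 ± 6.75 CPM in CF against 50.5 ± 11.01 CPM in non-CF (log2 fold change -0.79, SE 0.17, edgeR adjusted p = 0.0291), with an adjusted p of 0.0758 without CF7, 0.0539 without CF9 and 0.0836 without HET20. AQP3 was 22.7 ± 3.23 CPM in CF against 34.4 ± 5.02 CPM in non-CF (log2 fold change -0.60, SE 0.12, edgeR adjusted p = 0.0211), with an adjusted p of 0.0536 without CF11 and 0.0633 without HET20. HSD11B2, which inactivates cortisol in the same principal cells, was higher, with 67.7 to 94.9 CPM in CF and 54.8 to 58.6 CPM in non-CF (log2 fold change 0.51, SE 0.089, edgeR adjusted p = 0.0118), so that members of 1 cell type moved in different directions. Together they were the called members of 14 principal cell markers (21.4%, beside 2.27% of all genes). AQP7, the glycerol channel of the proximal straight tubule, gave -0.82 (SE 0.17, edgeR adjusted p = 0.0253) and was lost in 5 of 10 fits that left out 1 library (adjusted p up to 0.0714). SLC12A1, the loop cotransporter of the thick ascending limb, gave -0.40 (SE 0.089, edgeR adjusted p = 0.0346) and was the only called member of 12 in that segment (8.33%, beside 2.27% of all genes), although it was lost in 7 of 10 fits that left out 1 library (adjusted p up to 0.102). ATP6V1C2, a proton pump subunit and the only called member of 14 intercalated cell markers (7.14%, beside 2.27% of all genes), gave -0.42 (SE 0.084, edgeR adjusted p = 0.0221), with an adjusted p of 0.058 without CF7, 0.0559 without CF11 and 0.0673 without HET20. WNT9B, a signal of the ureteric bud and collecting duct that drives nephron formation, was 27.9 ± 6.74 CPM in CF against 12.9 ± 1.73 CPM in non-CF (log2 fold change 1.12, SE 0.16, edgeR adjusted p = 0.00365). Of 19 nephron progenitor and developing nephron genes 0 were called by edgeR and by limma-voom and 1 by DESeq2, and 3 had an unadjusted p under 0.05. HES1, a Notch target, was closest with 0.47 (SE 0.12, edgeR adjusted p = 0.0517), and it passed without CF8 (adjusted p = 0.031).

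Most glycolytic enzymes had lower means in CF. Of 18 listed, 4 were called lower and 1 higher (27.8%, beside 2.27% of all genes), 16 had lower means, where 9834 of all 20882 genes had, and the median was -0.37. In the earlier-numbered pigs 16 of the 18 also had lower and 2 higher means in CF, with a median of -0.15. LDHA (chr2:40814163-40827284), which converts pyruvate to lactate, was 42.98, 34.4, 45.1, 36.2 and 38.4 CPM in CF7 to CF11, 68.8, 76.9 and 74.2 CPM in HET19 to HET21, and 71.8 and 52.8 CPM in WT22 and WT23. WT23 was the lowest control and still above all CF libraries (log2 fold change -0.80, SE 0.11, edgeR adjusted p = 0.0035). HK1, which phosphorylates glucose, was 127 ± 9.14 CPM in CF against 171 ± 14.9 CPM in non-CF (log2 fold change -0.44, SE 0.082, edgeR adjusted p = 0.0169, 0.0571 without HET20). PFKM and PKM were also lower, with -0.31 (SE 0.067, edgeR adjusted p = 0.0282, lost in 5 of 10 fits that left out 1 library, adjusted p up to 0.0778) and -0.41 (SE 0.090, edgeR adjusted p = 0.0312, lost in 6 of 10 fits that left out 1 library, adjusted p up to 0.0863). PFKFB3, which makes the allosteric activator of phosphofructokinase, rose, at 138, 67.7, 108, 72.3 and 68.4 CPM in CF7 to CF11, 38.9, 35.4 and 44.8 CPM in HET19 to HET21, and 38.9 and 28.6 CPM in WT22 and WT23. All CF libraries exceeded the controls (log2 fold change 1.28, SE 0.20, edgeR adjusted p = 0.00594). GPD2 (chr15:63592723-63728636), the mitochondrial glycerol phosphate dehydrogenase that carries cytosolic electrons to the respiratory chain, was 21.6, 19.8, 18.95, 21.1 and 16.3 CPM in CF7 to CF11, 39.1, 32.6 and 35.4 CPM in HET19 to HET21, and 30.3 and 29.4 CPM in WT22 and WT23. The groups did not overlap (log2 fold change -0.77, SE 0.10, edgeR adjusted p = 0.00314). SLC16A7, a monocarboxylate transporter for lactate and pyruvate, gave -0.55 (SE 0.085, edgeR adjusted p = 0.00632). PC, pyruvate carboxylase, the first enzyme of gluconeogenesis from pyruvate, was the only called member of 14 in the gluconeogenesis and ammonia list (7.14%, beside 2.27% of all genes), with 0.72 (SE 0.17, edgeR adjusted p = 0.0459), and was lost in 8 of 10 fits that left out 1 library (adjusted p up to 0.112).

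Nuclear-encoded subunits of the respiratory chain had lower means in CF for 33 of 33 members past the filter, where 9834 of all 20882 genes had. Each change was small, with a median of -0.26 (-0.17 against WT alone), between -0.35 and -0.19 when single libraries were left out. In the earlier-numbered pigs 31 of these subunits had lower and 2 higher means in CF, where 10370 of 20727 genes had lower ones, with a median of -0.10. Among the listed subunits only UQCRB, a subunit of complex III, was called (3.03%, beside 2.27% of all genes), with -0.49 (SE 0.11, edgeR adjusted p = 0.0383), and it was lost in 8 of 10 fits that left out 1 library (adjusted p up to 0.0995). Of 18 citrate cycle genes, a list added after values had been seen, 17 had lower means and 2 were called (11.11%, beside 2.27% of all genes), IDH1 with -0.41 (SE 0.081, edgeR adjusted p = 0.0214) and CS with -0.36 (SE 0.086, edgeR adjusted p = 0.0494). IDH1 was lost in 4 of 10 fits that left out 1 library (adjusted p up to 0.0665), and CS in 8 of 10 fits that left out 1 library (adjusted p up to 0.128). The list does not hold every subunit: NDUFA5 and NDUFB6 of complex I and COX6B of complex IV, found by symbol after values were seen, were also called lower, with -0.40 (SE 0.087, edgeR adjusted p = 0.0316), -0.45 (SE 0.11, edgeR adjusted p = 0.0434) and -0.44 (SE 0.099, edgeR adjusted p = 0.0362). The libraries were not uniform: summed respiratory chain subunits were 5225 to 8305 CPM in CF and 6769 to 8341 CPM in non-CF, so the groups overlapped.

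Most chaperone genes and all proteasome genes had lower means in CF. In a list of 30 heat shock proteins and chaperonins, added after values had been seen, 7 were called lower and 1 higher (26.7%, beside 2.27% of all genes), 27 had lower means and the median was -0.34. HSPD1, the mitochondrial chaperonin whose promoter is printed above, was 232, 217, 299, 264 and 274 CPM in CF7 to CF11, 399.9, 370.1 and 399 CPM in HET19 to HET21, and 442 and 331 CPM in WT22 and WT23. Every CF library was below every control (log2 fold change -0.59, SE 0.10, edgeR adjusted p = 0.0125). Its cofactor HSPE1 gave -0.68 (SE 0.13, edgeR adjusted p = 0.019, 0.0542 without CF7 and 0.0537 without HET20), the cytosolic chaperone HSP90AA1 -0.58 (SE 0.11, edgeR adjusted p = 0.0196, 0.0542 without CF7 and 0.0501 without HET20), and the HSP90 cochaperones FKBP4, PPID and AHSA1 gave -0.57 (SE 0.098, edgeR adjusted p = 0.0114), -0.52 (SE 0.092, edgeR adjusted p = 0.0137) and -0.41 (SE 0.092, edgeR adjusted p = 0.0341, lost in 7 of 10 fits that left out 1 library, adjusted p up to 0.0903). TCP1, a subunit of the cytosolic chaperonin, was the seventh, with -0.38 (SE 0.092, edgeR adjusted p = 0.0495, lost in 8 of 10 fits that left out 1 library, adjusted p up to 0.117). BAG3, a cochaperone of selective autophagy, was higher, with 0.68 (SE 0.16, edgeR adjusted p = 0.0456, lost in 7 of 10 fits that left out 1 library, adjusted p up to 0.118). All 39 proteasome genes, in another list added later, had lower means, with a median of -0.25, between -0.32 and -0.20 when single libraries were left out, and 4 were called (10.3%, beside 2.27% of all genes). These were PSMG2, PSMA3, PSMB4 and PSME2, which were lost in 6, 8, 8 and 7 of 10 fits that left out 1 library. In the endoplasmic reticulum HSP90B1 gave -0.49 (SE 0.11, edgeR adjusted p = 0.0318), lost in 7 of 10 fits that left out 1 library (adjusted p up to 0.0807), as the only called chaperone of 20 (5%, beside 2.27% of all genes).

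Of 30 genes of cell division 30 had lower means, where 9834 of all 20882 genes had, with a median of -0.29 (-0.16 against WT alone), and only CCNB3 was called (3.33%, beside 2.27% of all genes). The same 30 genes had lower means in the earlier-numbered CF pigs, with a median of -0.25. Of 24 ribosome biogenesis genes, a list added after values had been seen, 21 had lower means, where 9834 of all 20882 genes had, and 2 were called (8.33%, beside 2.27% of all genes). UTP20, a factor of small ribosomal subunit assembly, was 121 ± 15.1 CPM in CF against 202 ± 23.1 CPM in non-CF, without overlap (log2 fold change -0.74, SE 0.10, edgeR adjusted p = 0.00365). NPM3 gave -0.85 (SE 0.18, edgeR adjusted p = 0.0275) and was lost in 5 of 10 fits that left out 1 library (adjusted p up to 0.0776). Of 55 cytosolic ribosomal proteins 0 were called by edgeR, DESeq2 or limma-voom, 1 had an unadjusted p under 0.05, and the median was -0.0033, with the opposite sign under 9 alternatives. HNRNPA2B1, an abundant RNA-binding splicing regulator, was 327 ± 12.02 CPM in CF against 444 ± 23.9 CPM in non-CF (log2 fold change -0.44, SE 0.069, edgeR adjusted p = 0.00746).

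**Figure D4:**
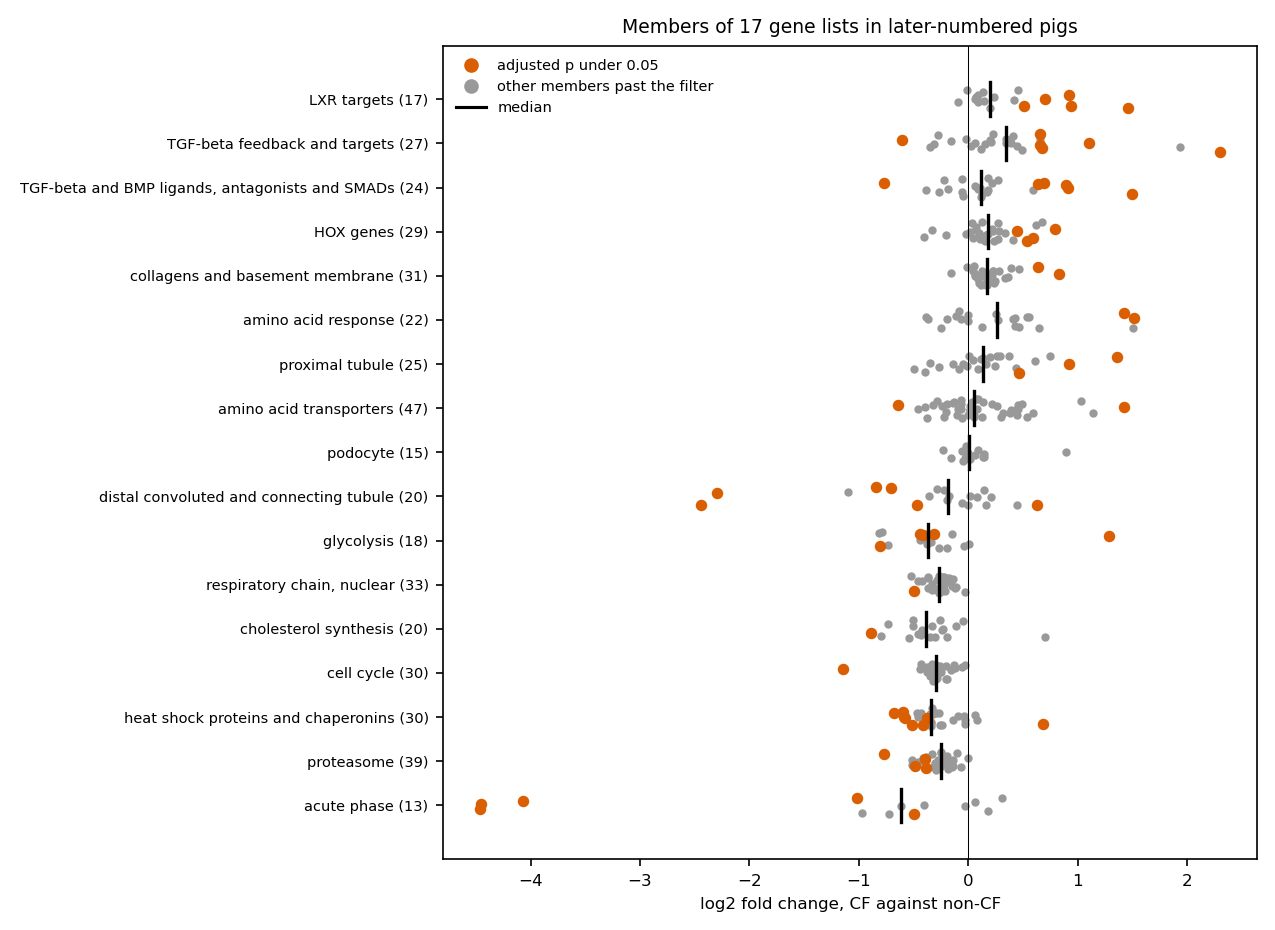
Log2 fold change of CF against non-CF for the members of 17 gene lists past the expression filter (number in parentheses); each point is a gene, orange at an adjusted p under 0.05, and the black bar is the median. All members of the respiratory chain, cell cycle and proteasome lists lie below 0, with few of them called.

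DUSP6, the phosphatase that ERK induces to limit its own activity, was 54.6, 53.2, 43.6, 46.7 and 41.9 CPM in CF7 to CF11, 74.2, 101 and 83.2 CPM in HET19 to HET21, and 93.5 and 94.6 CPM in WT22 and WT23. All CF libraries were below all controls (log2 fold change -0.89, SE 0.10, edgeR adjusted p = 0.00145). It was the only called member of 17 ERK feedback genes (5.88%, beside 2.27% of all genes), also a list added after values had been seen, of which 15 had lower means, where 9834 of all 20882 genes had, with a median of -0.25. The transcription factors SOX4 and SOX9, which are raised in developing and repairing tubules, were higher, with 0.96 (SE 0.16, edgeR adjusted p = 0.00948) and 0.78 (SE 0.17, edgeR adjusted p = 0.0299), and the adjusted p of SOX9 was 0.0601 without CF7, 0.0672 without HET19 and 0.0854 without HET20. They were the 2 called members of 16 in the tubular injury and repair list (12.5%, beside 2.27% of all genes), of which 8 had higher and 8 lower means, while DESeq2 called 2 higher and 2 lower. The summed list was 994 to 1755 CPM in CF and 1078 to 4071 CPM in non-CF, with medians of 1182 and 2173 CPM, and the groups overlapped. The most abundant member was SPP1, osteopontin, named after its value was seen, which averaged 573 ± 229 CPM in CF and 1790.3 ± 1332 CPM in non-CF (SD, n = 5 each) and did not pass, with overlapping groups and -1.64 (SE 0.49, edgeR adjusted p = 0.1). In the same list TIMP1, a metalloproteinase inhibitor, gave -0.78 (SE 0.22, edgeR adjusted p = 0.0783), and the injury markers HAVCR1 and LCN2 gave 0.20 and -0.03, none of them called. ANO1, a calcium-activated chloride channel, was 20.04 ± 3.51 CPM in CF against 12.2 ± 1.21 CPM in non-CF, without overlap (log2 fold change 0.71, SE 0.13, edgeR adjusted p = 0.0137). It was the only called member of 28 chloride channels and SLC26 exchangers (3.57%, beside 2.27% of all genes). GPBAR1, the membrane bile acid receptor, was lower at low levels, with 0.176 to 0.587 CPM in CF and 0.877 to 2.17 CPM in non-CF (log2 fold change -1.77, SE 0.31, edgeR adjusted p = 0.0132). Of 29 HOX genes, which mark position along the body axis and were added after values had been seen, 25 had higher means and 4 were called, all higher (13.8%, beside 2.27% of all genes). They were HOXA9 with 0.54 (SE 0.099, edgeR adjusted p = 0.0146), HOXC8 with 0.59 (SE 0.12, edgeR adjusted p = 0.0239), HOXC11 with 0.80 (SE 0.17, edgeR adjusted p = 0.0282) and HOXA3 with 0.44 (SE 0.096, edgeR adjusted p = 0.031, lost in 8 of 10 fits that left out 1 library, adjusted p up to 0.0861). HOXC8 and HOXC11 were lost in 3 and 5 of 10 fits that left out 1 library.

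Of 13 acute phase genes past the filter, a list added after values had been seen, 5 were called, all lower in CF (38.5%, beside 2.27% of all genes), and for 3 of them the WT libraries lay near the CF libraries. FGB, the fibrinogen beta chain, was 2.85, 1.04, 1.58, 3.53 and 1.12 CPM in CF7 to CF11, 41.4, 119 and 53.5 CPM in HET19 to HET21, and 2.50 and 5.39 CPM in WT22 and WT23. WT22 lay within the CF range and WT23 just above it, while the 3 HET libraries were far higher (log2 fold change -4.46, SE 0.87, edgeR adjusted p = 0.019, 0.0512 without CF7 and 0.0527 without CF11). FGG, the gamma chain, was 1.55, 1.33, 1.82, 2.12 and 1.20 CPM in CF7 to CF11, 22.5, 69.3 and 35.3 CPM in HET19 to HET21, and 2.78 and 4.59 CPM in WT22 and WT23. It followed the same order (log2 fold change -4.07, SE 0.73, edgeR adjusted p = 0.0139). SAA3, a serum amyloid, was 0.0736, 0, 0.598, 0.0477 and 0.206 CPM in CF7 to CF11, 4.42, 5.64 and 9.82 CPM in HET19 to HET21, and 0.663 and 0.0835 CPM in WT22 and WT23, and CF8 had 0 counts, which allows up to 0.0609 CPM (log2 fold change -4.46, SE 1.03, edgeR adjusted p = 0.0412). With the WT libraries alone as the control the adjusted p was 0.434 for FGB and 0.109 for FGG, and all 3 HET libraries also carry EIF1AY. SAA3 was lost in 7 of 10 fits that left out 1 library (adjusted p up to 0.108). PTX3, a pattern recognition protein, and SOD2, the mitochondrial superoxide dismutase, did not overlap, with -1.01 (SE 0.16, edgeR adjusted p = 0.00628) and -0.50 (SE 0.097, edgeR adjusted p = 0.019), and the adjusted p of SOD2 was 0.0519 without CF7 and 0.0577 without HET20. In the list of liver markers, which holds both fibrinogen chains, 2 of 8 past the filter were called (25%, beside 2.27% of all genes), summed levels were 81.8 to 143 CPM in CF and 127 to 263 CPM in non-CF, and APOA1 and AFP gave 0.38 and -1.05.

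Few blood and vessel markers passed the test. Of 19 immune cell markers 0 were called by edgeR and by limma-voom and 5, all lower, by DESeq2, and 9 had an unadjusted p under 0.05, with summed levels of 160.0 to 211 CPM in CF and 186 to 276 CPM in non-CF. PTPRC, the common leukocyte antigen, was 10.1, 9.76, 10.9, 8.63 and 10.9 CPM in CF7 to CF11, 17.1, 18.9 and 20.6 CPM in HET19 to HET21, and 11.4 and 11.3 CPM in WT22 and WT23. CF libraries lay below all controls, and the WT libraries were nearer to CF than the HET libraries were (log2 fold change -0.66, SE 0.17, edgeR adjusted p = 0.0598). It passed without WT22 (adjusted p = 0.0394) or WT23 (adjusted p = 0.0273). HBB, the haemoglobin beta chain, averaged 118 against 119.6 CPM. Of 16 endothelial markers only KDR, the main VEGF receptor, was called (6.25%, beside 2.27% of all genes), with 155 to 213 CPM in CF and 219 to 268 CPM in non-CF (log2 fold change -0.48, SE 0.099, edgeR adjusted p = 0.024), and its adjusted p was 0.0537 without CF8, 0.0707 without HET20 and 0.0615 without WT22. Of 23 interferon-stimulated genes 0 were called by edgeR, DESeq2 or limma-voom and 3 had an unadjusted p under 0.05. Skeletal muscle and adrenal cortex markers were scarce, summing to 11.09 to 12.7 CPM in CF and 8.65 to 10.99 CPM in non-CF, and to 8.87 to 12.5 CPM in CF and 9.03 to 10.6 CPM in non-CF, with 0 called in each by edgeR, DESeq2 or limma-voom and 2 and 0 at an unadjusted p under 0.05.

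Genes that were higher had a median GC content of 57.5% and a median transcript length of 4156.5 bases, and those that were lower 46.6% and 2552 bases, beside 50.1% and 2964 bases over all genes tested. With GC content and length removed by a smooth offset in each library, 783 genes were called, 454 of them among the 473. All 473 kept their direction in these same libraries.

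The same comparison in the 13 earlier-numbered pigs, which share no library with the later set, called 0 of 21038 genes with edgeR (0%) and 1958 (9.31%) at an unadjusted p under 0.05, while DESeq2 called 150. Of the 472 later-called genes with a value there, 341 (72.2%) had the same direction, beside 55.0% of all genes, 45 of them with an unadjusted p under 0.05, and 12 had the opposite direction at that level. Their median absolute log2 fold change was 0.66 in the later pigs, on which they were selected, and 0.16 in the earlier pigs, beside 0.14 and 0.11 over all genes tested. Some genes were close in both sets: SKIL gave 0.68 later and 0.60 earlier, GPBAR1 -1.77 and -1.21, PTBP3, a splicing regulator, 0.54 and 0.45, TIMP3 0.64 and 0.44 (0.28 without CF1), and ABCA1 0.94 and 0.58. Others were near 0 in the earlier pigs, such as SAMD11 (-0.04), SLC4A11 (0.02), WNT9B (0.01) and DUSP6 (-0.05), although without CF1 SAMD11 was -0.27, WNT9B -0.15 and DUSP6 -0.22. FGB and FGG had higher means in the earlier CF pigs, with 3.15 and 2.42, but these rested on CF5, which held 326 CPM of FGB and 149.8 CPM of FGG. Without CF5 they were 0.46 and -0.71.

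A direct test of the difference between the 2 sets, over all 23 libraries, called 4 of 21582 genes (0.0185%), with 2220 (10.3%) at an unadjusted p under 0.05. GPD2 gave -0.77 later and 0.24 earlier (difference -1.02, edgeR adjusted p = 0.00737), and SLC16A7 -0.55 and 0.42 (difference -0.97, edgeR adjusted p = 0.0241). MMP11 gave 0.83 and -0.09 (difference 0.92, edgeR adjusted p = 0.0455), and NUDT4, which hydrolyses inositol pyrophosphates, -0.46 and 0.36 (difference -0.83, edgeR adjusted p = 0.0455). In NUDT4 the later-set adjusted p was 0.0527 without CF11 and 0.0518 without HET20. Most of the 473 genes were thus not shown to differ between the sets after adjustment, although 301 of 472 (63.8%) had an unadjusted p under 0.05 for the difference, beside 10.4% of all genes. That share rests partly on the later libraries that chose these genes. The number of genes called for the difference was 72 without CF1, 46 without WT17, 40 without CF6, 19 without CF8, 10 without HET14, 1 or 2 without CF2, CF3, CF4, CF5, CF9, CF11, WT12, HET13, HET15, WT16, WT18 or HET20, and between 3 and 5 without any other library. DESeq2 called 144.

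**Figure D5:**
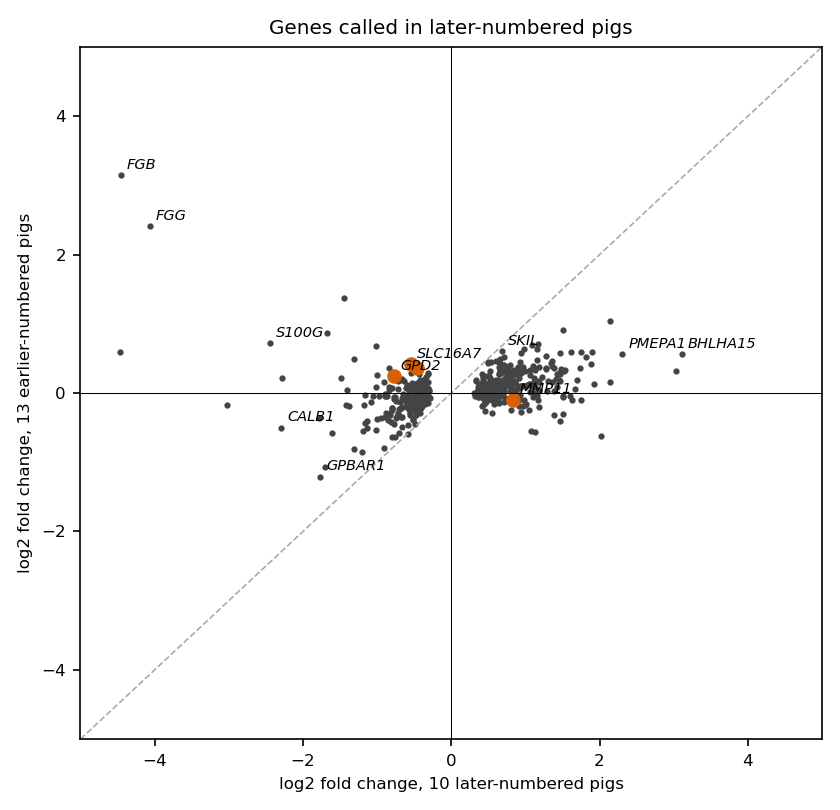
Log2 fold change of CF against non-CF in the 10 later-numbered pigs (x) and the 13 earlier-numbered pigs (y) for 472 genes called in the later pigs; each point is a gene, the dashed line marks equal values, and the 4 orange points are genes called for the difference. Most points lie near 0 on the y axis, and FGB and FGG lie at the upper left, where their earlier values rest on CF5.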

How the data were processed

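Total RNA of kidney cortex was sequenced from ribosomal RNA-depleted stranded libraries. The authors pseudoaligned reads with kallisto to pig RefSeq transcripts (Sscrofa11.1) and deposited estimated counts and TPM per transcript. Whether counting used strand is not given in the sources used here. Here estimated counts of 77689 transcripts were summed per gene symbol (26687 symbols, all found in the annotation) and rounded. On average 64.0% of transcript values were not whole.

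Genes past filterByExpr were tested with edgeR 4.0.16 (TMM, quasi-likelihood test, Benjamini-Hochberg adjustment, limit 0.05) in R 4.3.3. The unit is 1 library from 1 pig, and nothing states that the pigs of a group came from separate litters. Alternatives used DESeq2 1.42.0, limma 3.58.1 (voom, and log2(TPM + 1)), other scalings and filters, either control genotype alone, and each library left out. Scripts were tested on simulated counts. Figures and exact tests used Python 3.11.15, scipy 1.17.1 and matplotlib 3.10.9.

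Libraries, gene lists and tests were chosen with earlier results of these data known, and lists called added were chosen after values here had been seen. Genes were named by rule: CFTR, EIF1AY, SLC1A1 and SLC38A4, the 10 genes in each direction with the smallest adjusted p, the 5 largest called changes in each direction at a mean of 1 CPM or more, the genes called for the difference between the sets, and up to 3 called members of each list, or else the member with the smallest p. LOC symbols were left out. Other list members were named after their values were seen. Counts cannot be split reliably between near-identical copies or overlapping genes. Mitochondrially encoded genes were not analysed here, and of the sex-linked list only EIF1AY passed the filter. Results for a few genes are not reported here.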

Additional observations from a re-analysis of the deposited data

Results flagged for a closer look

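In 6 of 214 groups of 5 libraries among the named genes, 1 library lay apart from its group by more than Dixon's limit, which chance passes in about 1 group in 20. MMP11 was 122 CPM in CF10, the lowest CF library, where the next was 146 CPM. ABCA1 was 131 CPM in WT23, the highest control, where the next was 98.9 CPM. SLC8A1 was 346 CPM in HET19, below the other controls, which began at 504 CPM. INSR was 203 CPM in WT22 against at least 265 CPM in the other controls, and PSMA3 was 69.6 CPM in WT23 against at least 85.7 CPM. SOX9 was 9.40 CPM in CF7, where the next CF library held 6.47 CPM.

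In 4 genes the log2 difference between CF and non-CF itself differed between the later- and earlier-numbered pigs in edgeR's quasi-likelihood test. The later minus earlier value was -1.02 for GPD2 (adjusted p = 0.00737), -0.97 for SLC16A7 (adjusted p = 0.0241), 0.92 for MMP11 (adjusted p = 0.0455) and -0.83 for NUDT4 (adjusted p = 0.0455). GPD2, SLC16A7 and NUDT4 were lower in CF in the later pigs and had higher means in CF in the earlier pigs. The sets were separated by measured expression, and what else differs between them is not in the labels.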

How the results depend on the processing

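The 473 genes called in the later-numbered pigs kept their direction under every alternative that could be fitted. These alternatives reuse the libraries that chose the genes, and 400 of the 473 did not overlap between the groups. Kept direction was therefore largely fixed in advance. The number of genes called did change. It was 1339 with DESeq2, 756 with EIF1AY as a covariate, 783 with GC content and length as an offset (chosen after seeing the data), 235 with all 23 libraries in 4 groups, 37 with the WT libraries alone as the control and 50 in the 4 libraries without EIF1AY (also chosen after seeing the data). The exact Mann-Whitney U test called 0, since its smallest two-sided p with 5 against 5 is 0.00794, and 2509 genes had an unadjusted p under 0.05. Leaving out single libraries gave 175 (HET20) to 607 (WT23). In the earlier-numbered pigs DESeq2 called 150, the fit of all 23 libraries 61, the WT libraries alone as the control 4, and single libraries left out gave 0 to 12 (CF1). For the difference between the sets the count was 144 with DESeq2, 10 with upper-quartile normalization, 7 with EIF1AY as a covariate, and 1 to 72 (CF1) with single libraries left out. The cause of these shifts was not tested, and some of these fits also held fewer libraries.

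CFTR in CF minus HET ranged from 0.67 to 0.81 without single libraries. With 1 WT library left out, the remaining one is assumed to vary like the other groups. Of 92 named genes called, 50 kept the call whichever library was left out, 65 kept it with the HET libraries alone as the control and 14 with the WT libraries alone. None changed direction, again in fits that reuse the libraries that chose them. Both EIF1AY and SLC1A1, which were not called, changed sign. EIF1AY was -0.58 with the HET libraries alone as the control and ranged from -0.22 to 0.48 without single libraries. SLC1A1 was 0.028 with the HET libraries alone, 0.17 in the libraries with EIF1AY, and ranged from -0.22 to 0.038 without single libraries. No paired analysis was possible because the labels do not give the litter.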

Other observations

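Other signalling and metabolic lists held few calls. In the list of FoxO, insulin and IGF signalling 25 members passed the filter, 19 had higher means in CF, and 1 was called higher and 1 lower (8%, beside 2.27% of all genes). INSR, the insulin receptor, was 402, 386, 388, 318 and 308 CPM in CF7 to CF11, 265, 275 and 272 CPM in HET19 to HET21, and 203 and 271 CPM in WT22 and WT23. Every CF library lay above every control (log2 fold change 0.49, SE 0.11, edgeR adjusted p = 0.0314), and the call was lost in 6 of 10 fits that left out 1 library (adjusted p up to 0.0839). Of 19 hypoxia genes 2 were called, both lower (10.5%, beside 2.27% of all genes called and 1.05% called lower). HIF1A, the oxygen-regulated transcription factor subunit, was 106 ± 8.90 CPM in CF against 136 ± 8.07 CPM in non-CF (log2 fold change -0.36, SE 0.078, edgeR adjusted p = 0.0302) and was lost in 8 of 10 fits that left out 1 library (adjusted p up to 0.0758). P4HA2, a collagen prolyl hydroxylase, was 34.3 ± 4.39 CPM in CF against 47.6 ± 4.12 CPM in non-CF (log2 fold change -0.47, SE 0.098, edgeR adjusted p = 0.024), with an adjusted p of 0.064 without CF7, 0.0565 without CF11, 0.0505 without HET21 and 0.0615 without WT22. PGM3, an enzyme of hexosamine synthesis, was the only called member of 14 in its list (7.14%, beside 2.27% of all genes), at 17.3 ± 2.76 CPM in CF against 25.4 ± 2.37 CPM in non-CF (log2 fold change -0.56, SE 0.12, edgeR adjusted p = 0.0245), with an adjusted p of 0.0609 without CF7, 0.0635 without HET20, 0.0501 without HET21 and 0.0627 without WT22.

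Of 19 circadian clock genes BHLHE40 was called higher and its paralog BHLHE41 lower (10.5%, beside 2.27% of all genes). BHLHE41, a repressor of the clock, was 1.40, 1.70, 1.71, 0.834 and 1.15 CPM in CF7 to CF11, 3.03, 2.36 and 3.16 CPM in HET19 to HET21, and 1.94 and 3.22 CPM in WT22 and WT23. It did not overlap between the groups (log2 fold change -1.004, SE 0.22, edgeR adjusted p = 0.0308), and it was lost in 6 of 10 fits that left out 1 library (adjusted p up to 0.0733). Of 17 genes of bile acid sensing and transport 2 were called, both lower (11.8%, beside 2.27% of all genes), GPBAR1 and NR0B2. NR0B2, the nuclear receptor SHP that represses bile acid synthesis in liver, was 0.0736, 0.152, 0.278, 0.0953 and 0.206 CPM in CF7 to CF11, 0.415, 0.676 and 0.301 CPM in HET19 to HET21, and 0.485 and 0.731 CPM in WT22 and WT23 (log2 fold change -1.68, SE 0.38, edgeR adjusted p = 0.0389), at low levels, and was lost in 8 of 10 fits that left out 1 library (adjusted p up to 0.109). SCARB2, a lysosomal membrane protein, was the only called member of 29 lysosome genes (3.45%, beside 2.27% of all genes), with -0.31 (SE 0.067, edgeR adjusted p = 0.0312), and was lost in 8 of 10 fits that left out 1 library (adjusted p up to 0.0963). Of 15 glucocorticoid response genes, a list added after values had been seen, only PDK4 was called (6.67%, beside 2.27% of all genes).

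In 3 further lists edgeR called 0 members. They were 22 genes of the CREB family and protein kinase A (7 at an unadjusted p under 0.05), 11 genes of the renin-angiotensin system (2) and the list of stroma markers given above. DESeq2 called 1, 0 and 0 of them and limma-voom 0 in each. PDE4B, a cyclic AMP phosphodiesterase, gave 0.63 (SE 0.18, edgeR adjusted p = 0.0923) and passed without CF10 (adjusted p = 0.0312). AGTR2, an angiotensin receptor of the fetal kidney, gave -0.36 (SE 0.13, edgeR adjusted p = 0.155), and the pericyte marker RGS5 0.22 (SE 0.080, edgeR adjusted p = 0.171). RPL23, a ribosomal protein, the muscle myosin MYH1 and the corticotropin receptor MC2R had the smallest p of their lists, with -0.20, 0.73 and 0.38, and were not called.

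Calls were spread over the genome. Among placed chromosomes the share called ran from 1.64% on chromosome 16 to 3.52% on chromosome 5, and on chromosome 18, which carries CFTR, it was 2.11% of 474 genes. Within 5 Mb on either side of CFTR 49 genes were tested, of which 0 were called higher and 1 lower by edgeR, where 2.27% of all genes were called, and 11 had an unadjusted p under 0.05, where 17.4% of all genes had. A single call among 49 genes is near the share over all genes. The gene called was NDUFA5, a subunit of respiratory complex I (adjusted p = 0.0316), which was picked for this position after its value was seen.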
